A study of Danio rerio with 23 samples.

Results

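Collagen genes were followed in bulk RNA-seq of zebrafish retinae collected after light-induced retinal damage (LIRD) and from control animals (CTRL). The members were all rows of the count table whose symbol, in any case, read col, a type number, a and a chain number, with or without a paralog letter. This gave 57 of the 25281 genes in the table, and all 57 passed the filter on low counts. The study exposed larvae at 4 days post-fertilization (dpf), in groups of 50, to white light of 50000 lux for 3.5 h, let them recover in the dark for 48 h, and dissected the retinae. CTRL larvae did not receive the bright light. The libraries were made from poly(A)+ RNA with a strand-specific kit, each from a pool of 50 retinae as the study describes it, so a replicate is a pool and differences between animals within it were averaged. The study kept the wild-type TU strain and the Tg(fli:gal4;UAS:mCherry) line, and which of them gave these libraries is not given in the sources used here. The sample labels differ from the study's account, since they name adults, a 24 h exposure at 15000 lux, retinae taken as soon as the light ended and a column kit. What the light exposure was therefore rests on the study's text, and the conditions are named here only as CTRL and LIRD.

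The table held 17 libraries, 9 CTRL (replicates 1, 2, 3, 4, 5, 6, 8, 10 and 11) and 8 LIRD (replicates 1, 2, 4, 5, 6, 9, 10 and 11). The labels list 6 further samples, which were not analysed here. Total counts ranged from 70932504 to 150347385 per library, and its median was 105906004 for CTRL and 110077567 for LIRD. Library names end in an unbroken run of sample numbers, and the labels name no batch. At the start of the run replicates 1 and 2 of both conditions alternate, and after them all CTRL libraries come before all LIRD libraries. From this order alone, replicates 1 and 2 were set apart as a first index series and the other 7 CTRL and 6 LIRD libraries as a second. Whether these were separate batches is not given in the sources used here. CTRL 3 and CTRL 11, and LIRD 5 and LIRD 11, were much more alike than other libraries of a group. The chi-square per gene between their counts was 14.6 and 11.7, against a median of 243 over all pairs of libraries. Both pairs differed by more than sampling noise and were counted separately. Whether either pair came from the same retinae is not given in the sources used here. If so, 9 CTRL and 8 LIRD overstate the number of independent replicates. Retinal neuron markers summed to between 9058 and 18426 CPM per library and Muller glia markers to between 2542 and 4112 CPM. Markers of other tissues were also found, with sums of 7197 to 22292 CPM for skin epidermis and 2370 to 9274 CPM for skeletal muscle, and no gene of any marker list was at 3 or fewer counts in all libraries. Here CPM are counts scaled to the size of the library and corrected by TMM factors.

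Collagens are secreted or membrane-bound proteins in which several alpha chains wind around each other into a long helix. Fibrillar collagens (types I, II, III, V, XI, XXIV and XXVII) form the fibrils of bone, skin, sclera, cornea and cartilage, and types II and XI with type IX also form the fibrils of the vitreous that fills the eye. Type IV collagen is the network protein of basement membranes, which in the eye include the inner limiting membrane, Bruch's membrane, the lens capsule and the walls of vessels. The FACIT collagens (types IX, XII, XIV, XVI, XIX and XXI here) attach to the surface of fibrils, type VI forms beaded filaments, type VII anchors epithelia to the stroma, types VIII and X form short-chain networks, types XV and XVIII sit in basement membrane zones, and types XVII and XXIII span the cell membrane. Neurons of the neural retina are not a major source of fibrillar collagen. Retinae dissected from a larva can carry sclera, cartilage, vitreous and surface tissue, and how much of these each pool held was not recorded.

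Collagens took up 0.828% of all counts in the median CTRL library (range 0.758% to 1.31%) and 0.791% in the median LIRD library (range 0.470% to 0.921%). CPM levels compare libraries for a gene, not genes with each other, because the counts were not divided by transcript length. In bulk retinae, fewer cells that make a collagen and less of its RNA per cell cannot be told apart. Genes were tested with the quasi-likelihood test of edgeR, LIRD against CTRL, with Benjamini-Hochberg adjustment (FDR) over the 22503 genes that passed the filter. A gene was called at a change of over 1.5-fold in either direction with an FDR under 0.05, the thresholds of the study.

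No collagen gene was called. Over all genes tested, 9 (0.04%) were called. DESeq2 and limma-voom also called 0 of the 57, with 0.315% and 0.0667% of all genes called by each. The smallest FDR of a collagen was 0.491 with edgeR, 0.285 with DESeq2 and 0.526 with limma-voom. At an unadjusted p under 0.05, 4 of 57 passed with edgeR, against 7.64% of all genes, and 5 passed with each of DESeq2 (8.36% of all genes) and limma-voom (7.09%). All 4 edgeR genes lay lower in LIRD, a direction in which 2.74% of all genes passed. They were col7a1l (ENSDARG00000069692), col28a2b, col27a1b and col7a1. In no collagen did the LIRD and CTRL libraries separate without overlap, against 0.0711% of all genes.

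The fitted fold changes were small and mostly of the same sign. In 54 of 57 collagens the log2 fold change was below 0, against 46.2% of all genes, and the median was -0.16 against 0.02 over all genes. The members move together from library to library, so these 57 signs are not independent observations. The intervals of single genes were about as wide as over all genes. In 45 of 57 the 95% interval of the log2 fold change stayed below 1.5-fold on both sides, as in 71.2% of all genes. In 55 of 57 the interval lay within -1 and 1, as it did in 20952 of the 22503 genes tested. The median standard error (SE) was 0.14, and the median SD within a condition was 0.30 on the log2 scale, both close to the values over all genes, 0.14 and 0.30. The estimate farthest from 0 was that of COL10A1 (ENSDARG00000101535) at -0.63 (SE 0.34, p = 0.082, FDR = 0.69 by edgeR), a gene with 0.509 to 2.98 CPM.

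**Figure D1:**
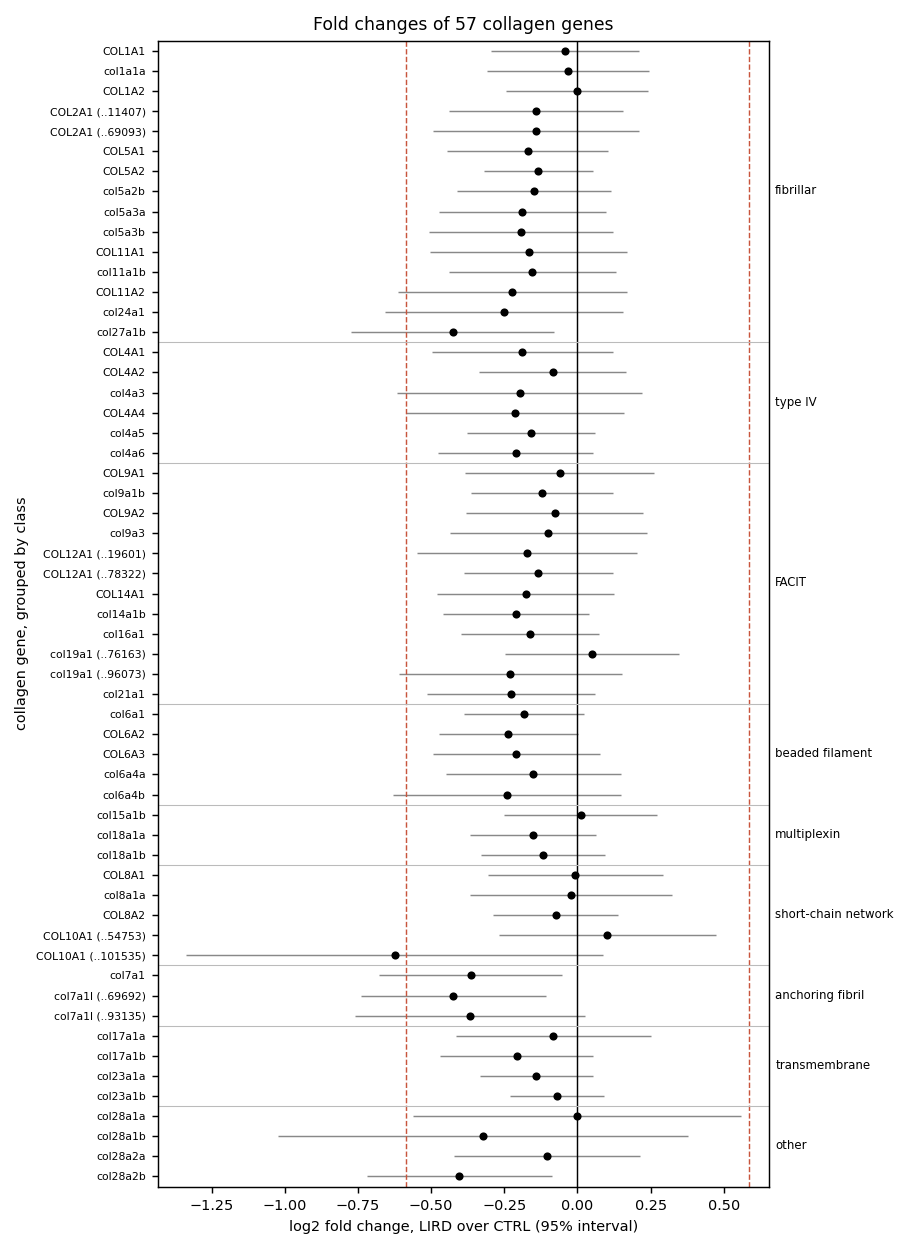
Log2 fold change of each of the 57 collagen genes, LIRD over CTRL (9 CTRL and 8 LIRD libraries), as fitted by edgeR, with genes grouped by class on the y axis. Points are estimates, lines are 95% intervals and dashed lines mark a 1.5-fold change in either direction. Of the 57 points, 54 lie left of 0, and no gene was called.

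Part of the median of -0.16 came from 2 libraries. The median deviation of the 57 collagens from their own means over the 17 libraries, on the log2 scale, was 0.46 in CTRL 6 and -0.58 in LIRD 1. CTRL 6 was the highest library of all 17 for 31 of the 57 genes, and LIRD 1 the lowest for 37. In the other 8 CTRL libraries the median deviation ranged from -0.09 (CTRL 5) to 0.14 (CTRL 11), and in the other 7 LIRD libraries from -0.21 (LIRD 2) to 0.14 (LIRD 6). These ranges overlapped. Without CTRL 6 the median fold change was -0.10, with 49 of 57 genes below 0, and without LIRD 1 it was -0.09, also with 49. With both left out, which was added with the data in view, the median was -0.04 and 40 of 57 genes were below 0 (44.2% of all genes in the same fit). Taking out the highest CTRL and the lowest LIRD library moves the fold changes towards 0 by construction.

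Summed over the 57 genes, collagen levels ran from 7107 CPM in CTRL 5 over a median of 8431 to 11449 in CTRL 6, and from 5597 in LIRD 1 over a median of 8218 to 9822 in LIRD 4. The conditions overlapped over most of their ranges. Other broad gene groups also set LIRD 1 apart, in lists that were written with the data in view. In these lists CTRL 6 lay at an end of the CTRL range, but not of all libraries. The sum of 72 ribosomal protein genes, which encode short and abundant mRNAs, was lowest of the CTRL libraries in CTRL 6 (39009 CPM, CTRL up to 89353) and highest of all in LIRD 1 (147894 CPM, LIRD from 32305). The sum of 14 ubiquitous genes with very long coding regions was highest of CTRL in CTRL 6 (2057 CPM, CTRL from 1625) and lowest of all in LIRD 1 (983 CPM, LIRD up to 2132). CTRL 11 came close to CTRL 6 in this sum (2027 CPM), and LIRD 10 exceeded it (2132 CPM). LIRD 2 and LIRD 4 came next to LIRD 1 in both sums. They had 102514 and 102864 CPM of ribosomal protein genes and 1330 and 1312 CPM of long genes. The ribosomal sum was lower in LIRD 6 (32305 CPM) than in CTRL 6. The median collagen deviation was -0.21 in LIRD 2, -0.19 in LIRD 4, 0.14 in LIRD 6 and -0.11 in LIRD 10. Skin epidermis markers (12 genes) and skeletal muscle markers (11 genes) were also at their highest in LIRD 1, at 22292 and 9274 CPM. In a fit with the mean log2 level of the ribosomal protein genes as a covariate, the collagen median was -0.11, with 54 of 57 genes below 0 (52.4% of all genes) and 0 called (0.0844% of all genes). Between the conditions, too, the fold changes of each group lay nearly all on 1 side of 0. All 14 long ubiquitous genes had log2 fold changes below 0, with a median of -0.12, and 1 of the 72 ribosomal protein genes did, with a median of 0.41. In both lists 0 genes were called and 0 had an unadjusted p under 0.05. Beyond the fit with the covariate, the part of these groups in the collagen levels was not tested.

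**Figure D2:**
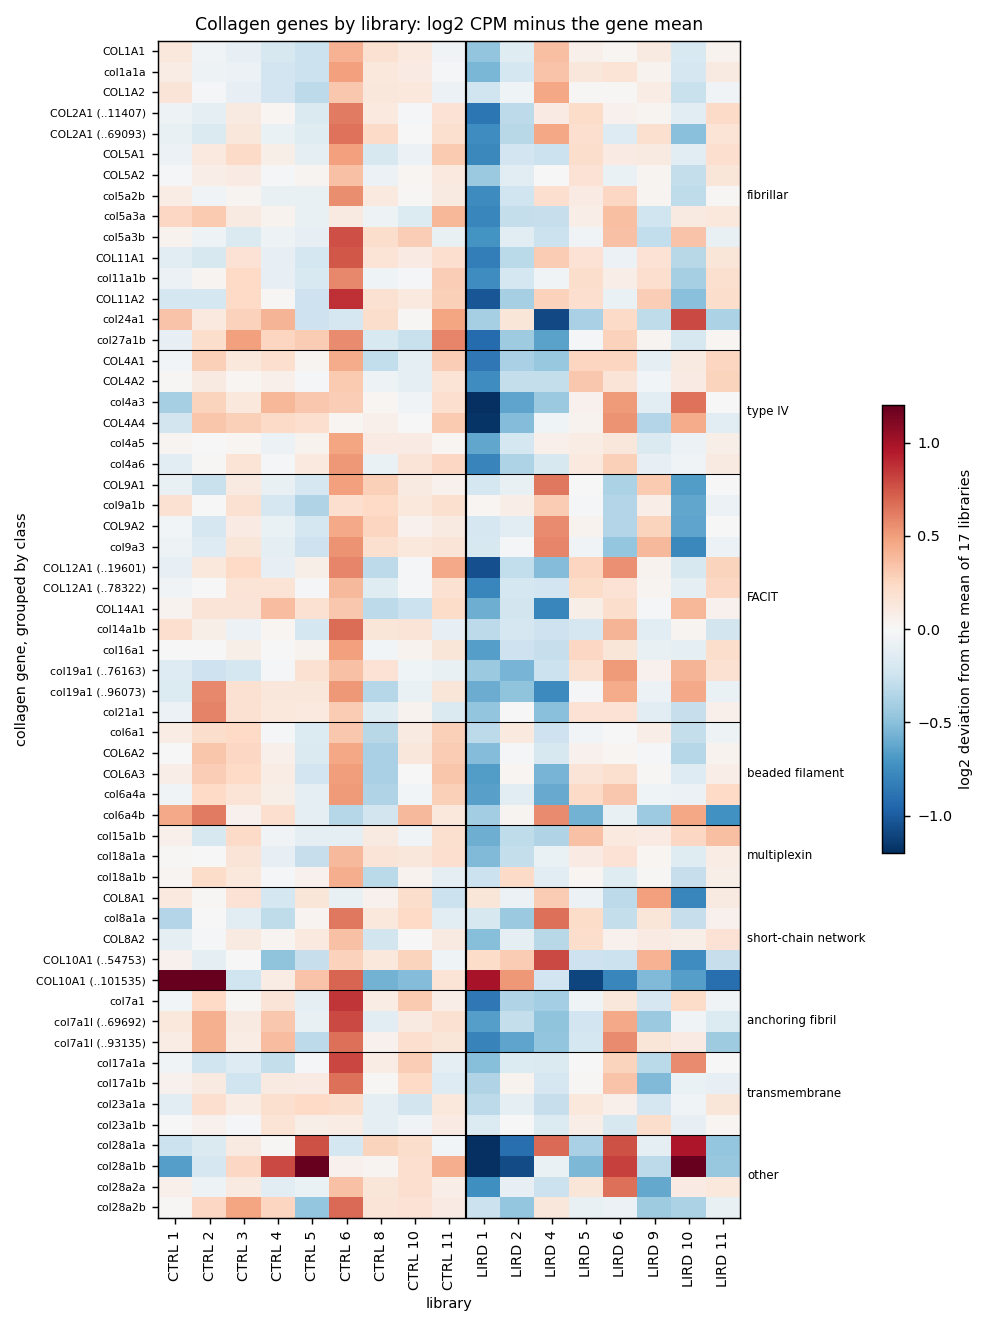
Level of each collagen gene (y axis, grouped by class) in each of the 17 libraries (x axis, CTRL left and LIRD right of the line) as log2 CPM minus the mean of the gene over the libraries. The CTRL 6 column is red for most genes and the LIRD 1 column blue, while LIRD 4 and LIRD 10 differ between classes.

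The 2 index series, which are an inference from the sample numbers and not a labelled batch, gave medians of different size. In the first series, with 2 CTRL and 2 LIRD libraries, both LIRD libraries had low collagen levels, the median log2 fold change was -0.41 and 54 of 57 genes were below 0 (47.7% of all genes). In the second series it was -0.08, with 48 of 57 below 0 (47.2% of all genes). In the first series alone 6 of 57 collagens (10.5%) were called, against 17.2% of all genes, and 22 had an unadjusted p under 0.05, against 39.1% of all genes. The 6 were col28a1a (-0.84), col5a3a (-0.79), col7a1l (ENSDARG00000069692) (-0.73), COL4A1 (-0.73), col6a4b (-0.71) and col7a1 (-0.69), with FDRs from 0.0274 to 0.0466 by edgeR. In the second series 0 were called (0.0178% of all genes), 1 had an unadjusted p under 0.05 (4.38% of all genes), and the smallest FDR was 0.491. The first series rests on 2 libraries a condition, and whether the 2 series differ was not tested.

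The 15 fibrillar collagen genes encode types I, II, V, XI, XXIV and XXVII. All 15 had a log2 fold change below 0, with a median of -0.15 and a range from -0.43 to -0.00083, and 0 were called. With CTRL 6 and LIRD 1 left out their median was -0.01. Their summed level ran from 4399 to 7495 CPM in CTRL (median 5271) and from 3261 to 6338 in LIRD (median 5266), and the medians were nearly equal.

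Type I collagen is the main fibril protein of bone, skin, tendon and sclera, and 3 genes for it were in the table. col1a1a (ENSDARG00000012405) had 665 CPM in its lowest CTRL library, a median of 789 and 1124 in its highest, CTRL 6. In LIRD it ranged from 546 in LIRD 1 over a median of 839 to 1012 in LIRD 4. The LIRD median was the higher, the ranges overlapped, and the log2 fold change was -0.03 (SE 0.13, FDR = 0.936 by edgeR). COL1A1 (ENSDARG00000035809) had a log2 fold change of -0.04 (SE 0.12) and COL1A2 (ENSDARG00000020007), the partner chain, of -0.00083 (SE 0.12, 95% interval -0.24 to 0.24). For COL1A2 the means were 551 ± 76.9 CPM in CTRL (SD, n = 9) and 551 ± 92.4 in LIRD (SD, n = 8). Type I thus had the smallest fitted changes among the fibrillar types. In the second index series and with CTRL 6 and LIRD 1 left out all 3 had values slightly above 0, from 0.04 to 0.10. In the first index series COL1A1, col1a1a and COL1A2 had -0.33, -0.37 and -0.20.

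Type II collagen is the fibril protein of cartilage and vitreous, and the symbol COL2A1 stood on 2 identifiers. COL2A1 (ENSDARG00000069093) ranged in CTRL from 1290 over a median of 1465 to 2284 CPM, with CTRL 6 the highest. In LIRD it ranged from 870.4 in LIRD 1 over a median of 1469 to 2014 in LIRD 4. The medians differed by less than the spread of either condition, and the log2 fold change was -0.14 (SE 0.17, FDR = 0.768 by edgeR). COL2A1 (ENSDARG00000011407) had medians of 313 CPM in CTRL and 318 in LIRD, and its log2 fold change was also -0.14 (SE 0.14, FDR = 0.733 by edgeR). Reads that fit both copies can be split or lost by the counting, here and for the other paralogs, which was not tested.

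Types V and XI are minor fibril collagens, V in the fibrils of type I and XI in those of type II, and they set fibril diameter. The 5 type V genes had log2 fold changes from -0.19 to -0.13 and the 3 type XI genes from -0.22 to -0.15. COL5A2 (ENSDARG00000031678) had medians of 142 CPM in CTRL and 135 in LIRD and a log2 fold change of -0.13 (SE 0.09, 95% interval -0.32 to 0.05). col5a2b and col5a3b had log2 fold changes of -0.15 (SE 0.13) and -0.19 (SE 0.15). COL11A1 had medians of 519.5 CPM in CTRL and 498 in LIRD with a log2 fold change of -0.17 (SE 0.16), and COL11A2 243 and 235 CPM with -0.22 (SE 0.19). For each of these 5 genes CTRL 6 held the highest value and LIRD 1 the lowest. Of the less common fibrillar types, col24a1 had -0.25 (SE 0.19) and was lowest in LIRD 4 (3.13 CPM) and highest in LIRD 10 (11.5 CPM).

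col27a1b, which encodes a type XXVII collagen known from cartilage and from the notochord of zebrafish, had the most negative estimate of the fibrillar class. Its CTRL libraries ran from 3.72 over a median of 5.33 to 6.71 CPM, and its LIRD libraries from 2.35 over 4.17 to 5.399. In LIRD, 7 of 8 values were under the CTRL median, and 5 CTRL values fell inside the LIRD range. The log2 fold change was -0.43 (SE 0.17, p = 0.0188, FDR = 0.551 by edgeR). It stayed below 0 under every alternative tried, from -0.72 to -0.30.

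**Figure D3:**
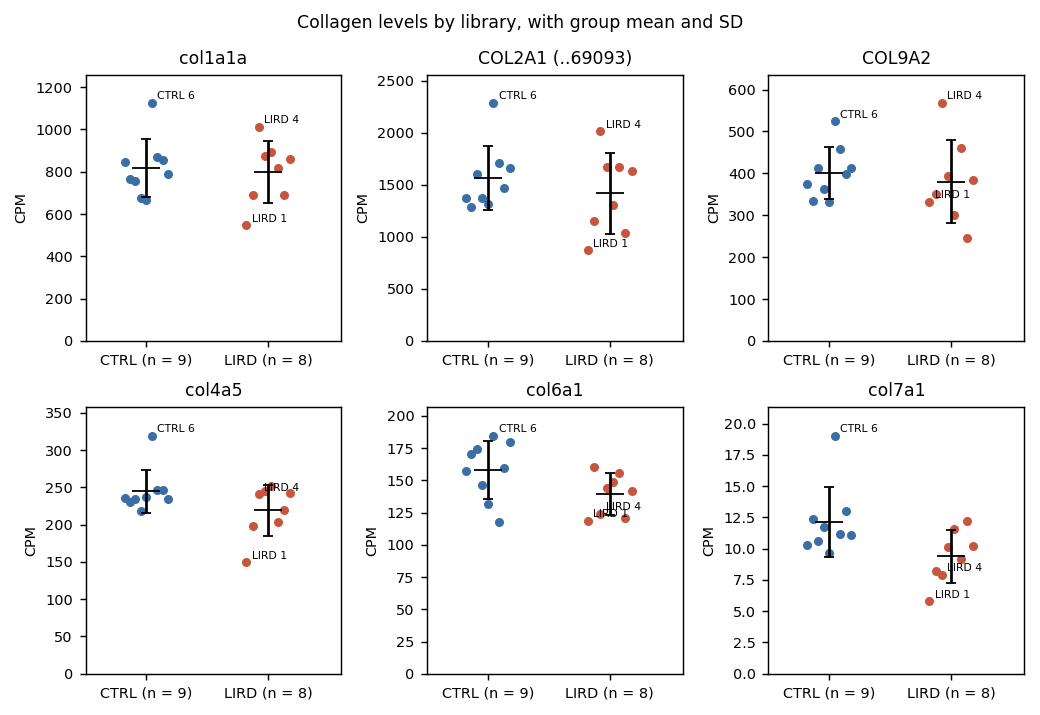
CPM of 6 collagen genes in each library (points), with the mean and SD of the condition (black), 9 CTRL and 8 LIRD libraries. In all 6 panels the conditions overlap. CTRL 6 is the highest CTRL library in each, and LIRD 4 is the highest of all for COL9A2 (567.8 CPM).

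The 6 type IV genes form 3 pairs of neighbours in the RefSeq annotation of GRCz12tu, COL4A1 with COL4A2, col4a3 with COL4A4 and col4a5 with col4a6, with 0 coding genes between the members of a pair. In mammals the genes of such pairs lie head to head. All 6 had log2 fold changes below 0, from -0.21 to -0.08 with a median of -0.19, and 0 were called or had an unadjusted p under 0.05. Without LIRD 1 the median was -0.10, and with CTRL 6 left out as well it was -0.06. Their summed level ran from 446 to 626 CPM in CTRL (median 475) and from 278 to 523 in LIRD (median 441).

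col4a5 (ENSDARG00000052063) had 219 CPM in its lowest CTRL library, a median of 235 and 319 in CTRL 6. Its LIRD libraries ran from 149 in LIRD 1 over a median of 230 to 252. The other 8 CTRL libraries lay between 219 and 247 CPM, and 5 LIRD libraries lay within or above that range. The log2 fold change was -0.16 (SE 0.10, 95% interval -0.38 to 0.06, FDR = 0.697 by edgeR). col4a6 had -0.21 (SE 0.13), with 7 of 8 LIRD libraries below the CTRL median. COL4A2 had -0.08 (SE 0.12), its median being 49.0 CPM in CTRL and 49.3 in LIRD, and its partner COL4A1 had -0.19 (SE 0.15). The less abundant pair col4a3 and COL4A4 had -0.20 (SE 0.20) and -0.21 (SE 0.18), and in both LIRD 1 was the lowest of the 17 libraries, at 2.19 and 2.72 CPM.

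Other basement membrane genes, laminins, nidogens, perlecan and their partners, gave 31 tested genes from a list on which type IV genes do not stand. In 26 of them the log2 fold change was below 0, with a median of -0.11, and 0 had an unadjusted p under 0.05. The smallest p was that of NID2 (ENSDARG00000075707), a nidogen that links laminin and type IV networks, at -0.21 (SE 0.11, p = 0.0784). LAMA1, a laminin chain of the inner limiting membrane, had -0.26 (SE 0.16). Of the multiplexins of basement membrane zones, 1 lay close to 0 and the others near the median of these partners. col15a1b had medians of 150 CPM in CTRL and 166 in LIRD with a log2 fold change of 0.01 (SE 0.12), and col18a1a and col18a1b, whose C-terminal fragment is endostatin, had -0.15 (SE 0.10) and -0.12 (SE 0.10).

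The vitreous group holds the 9 genes of types II, IX and XI. All 9 had log2 fold changes below 0, from -0.22 to -0.06 with a median of -0.14, and the smallest unadjusted p was 0.247. The summed level ran from 3193 to 5617 CPM in CTRL (median 3755) and from 2388 to 4867 in LIRD (median 3593). The median without CTRL 6 was -0.06, without LIRD 1 it was -0.08, and with both left out it was 0.00. Fibrillar, type IV and vitreous collagens thus had medians of -0.15, -0.19 and -0.14. Between libraries of a condition such a class had an SD of 0.26 to 0.31. That is a spread of single libraries and not a measure for differences between these medians. The type II and XI genes stand in both the fibrillar and the vitreous group. The classes were measured in the same libraries, and differences between them were not tested.

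Type IX collagen sits on the type II fibrils of cartilage and vitreous. COL9A2 (ENSDARG00000024492) had 332 CPM in its lowest CTRL library, a median of 398 and 525 in CTRL 6. In LIRD it ran from 247 in LIRD 10 over a median of 367 to 567.8 in LIRD 4. Both extremes of all 17 libraries were LIRD libraries, and the log2 fold change was -0.08 (SE 0.14, FDR = 0.855 by edgeR). COL9A1, col9a1b and col9a3 had -0.06, -0.12 and -0.10, with LIRD 10 the lowest and LIRD 4 the highest library in each. The type IX genes therefore did not follow LIRD 1, in which their median deviation was -0.20, against -0.74 for the vitreous group as a whole and -0.82 for type IV.

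LIRD 4 and LIRD 10 split some of the classes in opposite ways. In LIRD 4 the median deviation was 0.57 for type IX and 0.37 for type I, but -0.24 for type IV, -0.25 for type VI and -0.45 for type VII. In LIRD 10 it was -0.65 for type IX and -0.50 for the vitreous group, but 0.10 for type IV and 0.53 for type XXVIII. Type VI lay below its mean in LIRD 10 as well, at -0.15, and multiplexin and transmembrane collagens were also below in both libraries. LIRD 6 had -0.36 for type IX and 0.27 for type IV. Cartilage markers and the summed collagens of types II, IX and XI were high or low in some of the same libraries. The summed level of 13 cartilage marker genes, aggrecans, matrilins and others, was highest of all in LIRD 4 (1069.7 CPM) and CTRL 6 (946 CPM), and lowest in LIRD 10 (508 CPM) and LIRD 6 (552 CPM). The vitreous sums of the same libraries were 4867, 5617, 2603 and 3233 CPM. LIRD 1 had 570.4 CPM of cartilage markers and 2388 CPM of vitreous collagens. Type XI alone was close in LIRD 4 (1029 CPM) and CTRL 11 (1032 CPM), while CTRL 11 had 723 CPM of cartilage markers. Of the 13 markers 0 were called, 10 lay below 0 and the median was -0.06, with sums from 582 to 946 CPM in CTRL and from 508 to 1069.7 in LIRD. None of the 13 was at 3 or fewer counts in every library. The summed type IV and type VII levels did not rank LIRD 4 high (429 and 13.01 CPM). How much of the type II, IX and XI signal came from cartilage was not tested.

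**Figure D4:**
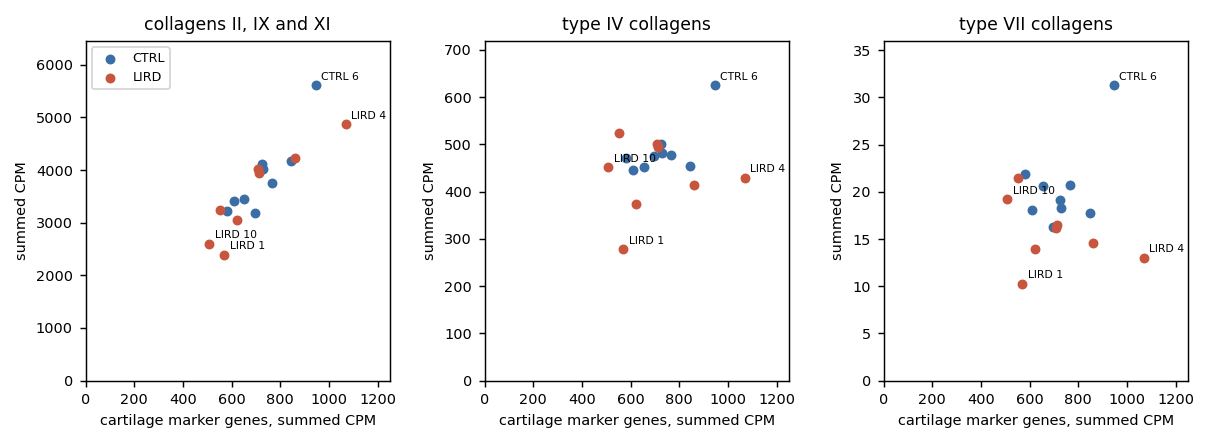
Summed CPM of vitreous collagens (left), type IV (middle) and type VII collagens (right) against the summed CPM of 13 cartilage marker genes, 1 point per library (9 CTRL, 8 LIRD). In the left panel LIRD 4 and CTRL 6 lie at the upper right and LIRD 10 and LIRD 1 at the lower left. In the middle and right panels LIRD 4 lies at the far right with 429 and 13.01 CPM, below CTRL 6.

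For chains that are built into the same molecule, the ratio varied less between libraries than the genes themselves. The log2 ratio of COL9A1 to COL9A2 had an SD of 0.04 over the 17 libraries, while the genes themselves had SDs of 0.32 and 0.29. For COL1A1 and COL1A2 the SD of the ratio was 0.08, against 0.22 and 0.21 for the genes. For col1a1a and COL1A2 it was 0.12, and the log2 ratio in LIRD 1 was 0.24, below the CTRL range of 0.48 to 0.72. The SD of the ratio was 0.08 for COL9A2 and col9a3 and 0.09 for COL11A1 and COL11A2 (0.34 and 0.42 for the genes). It was 0.10 for col6a1 and COL6A2, 0.12 for COL4A1 and COL4A2, and 0.13 for col4a5 and col4a6. For col4a3 and COL4A4 it was 0.17, against 0.46 and 0.41 for the genes. COL9A2 and col16a1, neighbours in RefSeq, were the only pair with a computed ratio that does not share a molecule. Their ratio had an SD of 0.34, as wide as the genes' own SDs of 0.29 and 0.25. The widest departures of this ratio were in LIRD 10 and LIRD 4. In none of these pairs did the ranges of the ratio separate the conditions. The mean log2 ratio of COL4A1 to COL4A2 was -0.21 ± 0.13 in CTRL (SD, n = 9) and -0.32 ± 0.08 in LIRD (SD, n = 8). A single contrast pair cannot show that a narrow ratio marks a shared molecule. col16a1 and COL4A2, which share none, were both high in CTRL 6 (54.8 and 59.9 CPM) and both low in LIRD 1 (24.7 and 28.7 CPM). Whether chains of a shared molecule have narrower ratios than other collagens was not tested.

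The other FACIT genes had log2 fold changes between -0.23 and 0.05. col14a1b, a fibril-associated collagen of type XIV, had medians of 33.6 CPM in CTRL and 27.8 in LIRD, with 7 of 8 LIRD libraries below the CTRL median and LIRD 6 (42.5 CPM) far above the other LIRD libraries. Its log2 fold change was -0.21 (SE 0.12, p = 0.0928, FDR = 0.697 by edgeR). COL14A1 had -0.18 (SE 0.14) and col16a1 -0.16 (SE 0.11). The 2 COL12A1 genes had -0.17 and -0.13, the 2 col19a1 genes 0.05 (ENSDARG00000076163) and -0.23 (ENSDARG00000096073), and col21a1, with about 1 CPM, -0.23 (SE 0.14).

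Type VI collagen forms beaded filaments around cells and beside basement membranes. Its 5 genes had log2 fold changes from -0.24 to -0.15 with a median of -0.21. COL6A2 (ENSDARG00000061436) had 61.1 CPM in its lowest CTRL library, a median of 87.9 and 110.4 in CTRL 6, and in LIRD it ran from 55.9 over a median of 79.3 to 83.4. Every LIRD value was under the CTRL median, as in 1.43% of all genes, but the 3 lowest CTRL values (61.1, 71.3 and 80.2 CPM) fell inside the LIRD range. The log2 fold change was -0.24 (SE 0.11, p = 0.0518, FDR = 0.657 by edgeR). col6a1 had 7 of 8 LIRD values under the CTRL median and a log2 fold change of -0.18 (SE 0.10), while COL6A3 had -0.21 (SE 0.14), col6a4a -0.15 (SE 0.14) and col6a4b -0.24 (SE 0.19). col6a1 and COL6A2 kept negative values under every alternative, from -0.24 to -0.12 and from -0.41 to -0.14.

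Type VII collagen makes the anchoring fibrils below surface epithelia, and its 3 genes had the most negative median of the classes, -0.37, with 0 called and 2 at an unadjusted p under 0.05. col7a1l (ENSDARG00000069692) had 6.09 CPM in its lowest CTRL library, a median of 7.29 and 11.6 in CTRL 6. In LIRD it ran from 4.23 in LIRD 1 over a median of 5.58 to 9.18 in LIRD 6. All LIRD values but that of LIRD 6 were under the CTRL median, and LIRD 6 lay above 8 of the 9 CTRL values. The log2 fold change was -0.42 (SE 0.15, 95% interval -0.74 to -0.11, p = 0.0113, FDR = 0.491 by edgeR). col7a1 (ENSDARG00000021720) had medians of 11.1 CPM in CTRL and 9.62 in LIRD, with CTRL 6 at 19.01 and the other CTRL libraries between 9.66 and 13.05. Its log2 fold change was -0.37 (SE 0.15, p = 0.0244, FDR = 0.58 by edgeR), and -0.18 with CTRL 6 and LIRD 1 left out. col7a1l (ENSDARG00000093135), with about 0.5 CPM, had -0.37 (SE 0.19). The 12 epidermal markers had a median of 0.09.

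The transmembrane collagens include type XVII, the hemidesmosome collagen of basal epithelial cells. col17a1a had medians of 60.4 CPM in CTRL and 58.8 in LIRD and a log2 fold change of -0.08 (SE 0.16), and col17a1b had -0.21 (SE 0.12), with 7 of 8 LIRD libraries below the CTRL median. col23a1a and col23a1b had -0.14 (SE 0.09) and -0.07 (SE 0.08). Of the type XXVIII genes, which resemble beaded filament collagens, col28a2b had 0.317 CPM in its lowest CTRL library, a median of 0.493 and 0.701 in CTRL 6, and ran from 0.316 over 0.388 to 0.480 in LIRD. Every LIRD value was under the CTRL median, but 3 CTRL values (0.317, 0.442 and 0.467 CPM) fell inside the LIRD range. The lowest of them, in CTRL 5, was nearly as low as the lowest LIRD library. The log2 fold change was -0.40 (SE 0.15, p = 0.0149, FDR = 0.516 by edgeR), and -0.32 with CTRL 6 and LIRD 1 left out. col28a1a (-0.00069, SE 0.27) and col28a1b (-0.32, SE 0.33) varied most of the type XXVIII genes between libraries, from 2.22 to 10.3 and from 0.436 to 3.16 CPM, and col28a2a had -0.10 (SE 0.15).

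The short-chain collagens had the median closest to 0, at -0.02. COL10A1 (ENSDARG00000054753), a collagen of hypertrophic cartilage in mammals and also of bone in fish, ran from 255 over a median of 358 to 433 CPM in CTRL and from 213 in LIRD 10 over 358 to 619.5 in LIRD 4. The medians were nearly equal, and the log2 fold change was 0.10 (SE 0.18, FDR = 0.843 by edgeR). COL10A1 (ENSDARG00000101535) was highest in CTRL 1, CTRL 2 and LIRD 1, at 2.98, 2.69 and 2.16 CPM, all of the first index series. The type VIII genes COL8A1, col8a1a and COL8A2, of which type VIII is known from Descemet's membrane of the cornea, had -0.01, -0.02 and -0.08.

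The genes that make, process, bind and degrade collagen were read from lists, with 0 called in any of them. Of 24 genes of chain folding and secretion, 13 lay below 0 with a median of -0.01, and 1 had an unadjusted p under 0.05, CREB3L1, a factor for secretory load in collagen-making cells, at -0.28 (SE 0.10, p = 0.0139). P4HA3, a prolyl hydroxylase subunit, had -0.25 (SE 0.13). Of 20 genes of propeptide removal and crosslinking, 13 lay below 0 with a median of -0.05 and 0 had such a p, the smallest being those of ADAMTS3, a procollagen peptidase (-0.26, SE 0.13), and LOXL4 (ENSDARG00000025089), a crosslinking oxidase (-0.21, SE 0.11). Of 14 receptor genes, 12 lay below 0 with a median of -0.08, and DDR1, a collagen-binding kinase, had -0.23 (SE 0.11, p = 0.0476), and DDR2 (ENSDARG00000058695) -0.20 (SE 0.13). The list of 16 degradation genes also holds inhibitors of such proteases, both TIMP2 genes and RECK, so its signs are not those of degradation alone. It was split evenly, with 8 below 0, and its 2 smallest p-values were on the higher side. CTSK, a collagen-cleaving cathepsin, had 0.37 (SE 0.13, p = 0.00901) and mmp13a, a collagenase, 0.59 (SE 0.22, p = 0.0147), with FDRs of 0.474 and 0.514 by edgeR. Of 27 proteoglycans and vitreous partners, OMD (0.58, SE 0.16, p = 0.00192) and OGN (ENSDARG00000044132, 0.33, SE 0.10, p = 0.00494) lay higher and vcana (-0.87, SE 0.27, p = 0.00433) lower at an unadjusted p under 0.05, against 4.9% of all genes on the higher and 2.74% on the lower side.

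Among the markers of other tissues, the 12 lens genes had a median of -0.16, close to that of the collagens, with 9 below 0 and 0 at an unadjusted p under 0.05. They varied widely, with a median SE of 0.38 and sums from 1076 to 6071 CPM in CTRL and from 1279 to 7850 CPM in LIRD. Periocular mesenchyme markers (17 genes) had a median of 0.09 with 0 at an unadjusted p under 0.05, endothelial markers (8 genes) -0.01, bone markers (7 genes) -0.09 and skeletal muscle markers (11 genes) 0.17. Skeletal muscle, skin epidermis and pigment cell markers each held 1 gene lower at such a p. Muller glia markers (8 genes) had a median of 0.09 and ran from -0.92 to 0.30, with 1 gene higher and 1 lower at such a p. Red blood cell markers had a median of 0.80, with 5 of 6 genes at an unadjusted p under 0.05, all higher in LIRD (4.9% of all genes). Among the retinal neuron markers, PDE6C of cones (-0.68, SE 0.19, p = 0.00237 by edgeR) and both ARR3 genes (-0.71 and -0.66) lay lower at an unadjusted p under 0.05 (2.74% of all genes). The median of the 18 was -0.01. The part of these tissues in the collagen values was not tested.

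**Figure D5:**
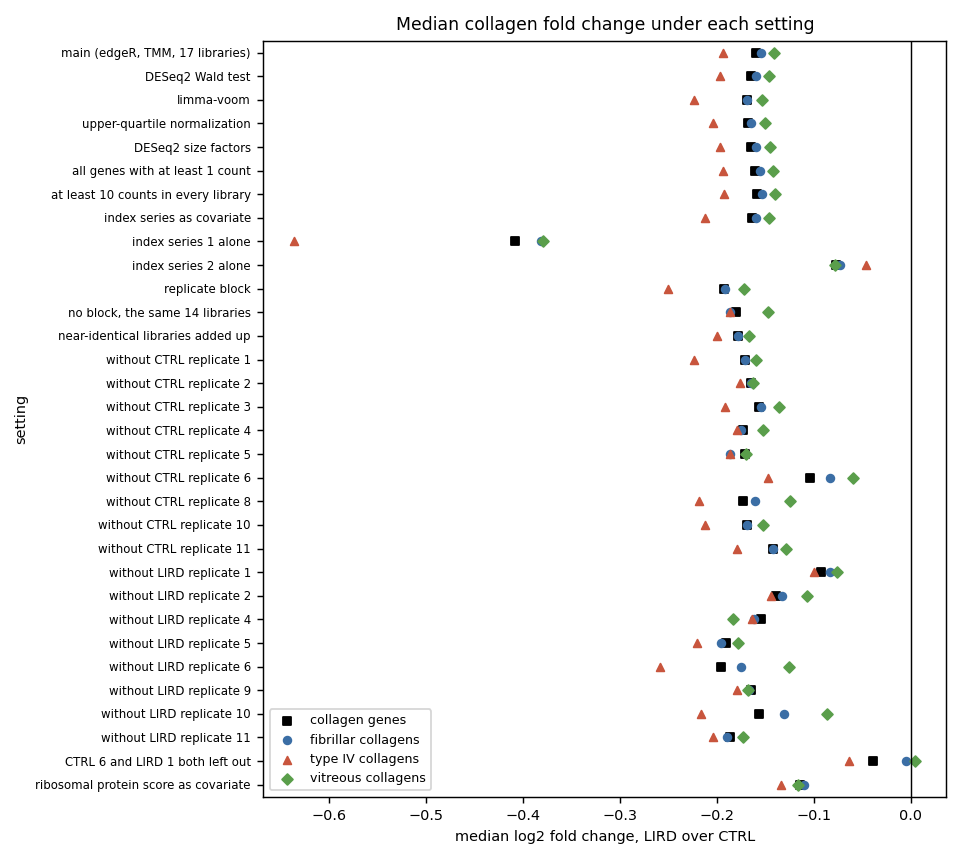
Median log2 fold change, LIRD over CTRL, of all 57 collagen genes, the 15 fibrillar, the 6 type IV and the 9 vitreous genes (markers) under each way of processing the counts (y axis). The first index series alone gives the most negative medians (-0.41 for all collagens). Leaving out CTRL 6 and LIRD 1 together gives the medians closest to 0 for all collagens (-0.04), fibrillar and vitreous genes. For type IV genes the second index series alone gives the median closest to 0 (-0.05).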

How the data were processed

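Poly(A)+ RNA of retinae was sequenced as paired reads. Per the submitters' processing notes, the tools were Trimmomatic 0.39, STAR 2.7.9a and featureCounts of Subread 2.0.1 with the GRCz11 build. The study's methods name other versions of STAR and Subread. The authors counted reads on exons with strand-specific counting and deposited raw counts per gene without normalization, and they excluded outlying samples after PCA. Whether reads or read pairs were counted is not given in the sources used here. Symbols were matched to 23499 of 25281 identifiers through the reference tables, and rows without a symbol took 0.705% of counts. Of 60 collagen symbols in RefSeq GRCz12tu, 6 had no row under that name or its stem, and 22 members carried a symbol in capitals without a paralog letter. The 5 symbols COL2A1, COL10A1, COL12A1, col19a1 and col7a1l stood on 2 identifiers each. Symbols of lists were matched exactly in any case, or else by the stem without a final a or b.

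From the deposited counts, edgeR 4.0.16 (R 4.3.3) gave the filterByExpr filter, TMM factors, CPM and log2 CPM (prior count 2), and its quasi-likelihood test was run in 1 model over both conditions. The SE is the log2 fold change divided by the square root of F. The alternatives were DESeq2 1.42.0, limma-voom (limma 3.58.1), other size factors and filters, a threshold of 1, the index series (inferred from sample numbers, with no batch labelled) as a covariate or alone, the replicate number as a block, near-identical libraries added up, and each library left out. Leaving out CTRL 6 and LIRD 1 together, the 14 libraries of the block without it, and the ribosomal protein covariate were added after the data were seen, as was the count of fold changes below 0. The scripts were tested on simulated data. The SEs include both counting error and the spread between libraries. Tables and plots were made with Python 3.11.15, pandas 2.3.3, numpy 2.4.6 and matplotlib 3.10.9.

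The members, classes and lists were chosen with earlier results of these data known. The text names the 5 collagens with the smallest p, the 3 of the fibrillar, type IV and vitreous groups and the 1 of every other class with the highest mean CPM, every member with a library far from its group, and the 2 genes with the smallest p of each partner list. The naming rule asked for CPM per kilobase, which could not be used without lengths, so plain CPM took its place for choosing names only. Other members and genes were named to account for their class, chain partner or list, after their values were seen.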

Additional observations from a re-analysis of the deposited data

Results flagged for a closer look

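In each condition the highest or lowest library was compared with its neighbour by Dixon's ratio, for each of the 57 collagens and for class sums. Of 114 groups of libraries, 19 in 18 genes held a library far from the others, of which 15 were CTRL 6. For normally distributed values chance alone gives about 1 flag in 20 groups, and the genes are not independent, since they share the library. The ratio was taken on CPM and not on log2 CPM, and all 19 flags fell on a highest library. CTRL 6 stood highest for col1a1a (1124 CPM), COL2A1 (ENSDARG00000011407, 475 CPM), COL2A1 (ENSDARG00000069093, 2284 CPM), COL5A2 (177 CPM), col5a2b (21.3 CPM), col5a3b (100.6 CPM), COL11A1 (809 CPM) and COL11A2 (413 CPM) among the fibrillar genes. It also stood highest for col4a5 (319 CPM), col9a3 (437 CPM), col14a1b (50.7 CPM), col16a1 (54.8 CPM), col7a1 (19.01 CPM), col17a1a (109 CPM) and col17a1b (35.6 CPM).

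Among LIRD libraries, LIRD 4 stood far above the others for COL1A2 (752 CPM), and LIRD 6 for col14a1b (42.5 CPM) and col7a1l (ENSDARG00000069692, 9.18 CPM). CTRL 5 stood above the other CTRL libraries for col28a1a (8.97 CPM). LIRD 1, the lowest library for most genes, was not far enough from the next LIRD library in any gene to be set apart by this ratio on CPM.

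Of 22 groups of summed levels, 7 held such a library, each time CTRL 6. The sums were 7495 CPM for fibrillar, 626 CPM for type IV, 1851 CPM for FACIT, 31.3 CPM for type VII, 166 CPM for transmembrane, 5617 CPM for vitreous and 11449 CPM for all 57 collagens.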

How the results depend on the processing

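Over 32 alternatives, 17 of them leaving out 1 library, 0 collagens were called except in the first index series alone (6 called, 22 at an unadjusted p under 0.05, median log2 fold change -0.41, and -0.64 for type IV), a fit of 2 against 2 libraries. Collagens at an unadjusted p under 0.05, 4 in the reported fit, were 1 in the second series alone, 1 without CTRL 6 and LIRD 1 (4.9% of all genes), and 10 with the replicate block (5.9%). All genes called, 9 in the reported fit, were 78 with DESeq2, 15 with limma-voom, 14 with at least 10 counts in every library, 17 with the series as a covariate, 3891 and 4 in the first and second series, 5 with near-identical libraries added up, 19 with the ribosomal covariate, 0 with the replicate block (1328 genes at an unadjusted p under 0.05) and 4 in its 14 libraries without the block. Whether replicate numbers pair the libraries remained unsettled. Deviations of same-numbered libraries correlated between -0.56 and 0.42, over 0.1 in 5 of 7 pairs. In 4 of the 7 pairs the CTRL library correlated best with its own number.

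With each library left out, 7 to 39 genes were called in all (39 without LIRD 10), 0 to 0 collagens were called, 3 to 9 had an unadjusted p under 0.05 (9 without LIRD 6, 7 without CTRL 5), and 49 to 55 were below 0. The medians ran from -0.20 to -0.09 for collagens, -0.20 to -0.08 for fibrillar, -0.26 to -0.10 for type IV and -0.18 to -0.06 for vitreous genes.

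Of the 29 genes chosen by rule, 15 kept their sign throughout. Signs turned for the others, and the cause was not tested. In the first series col9a3 had 0.019 and col15a1b -0.36 (unadjusted p = 0.0564 by edgeR), against a log2 fold change of 0.01 for col15a1b in the reported fit. In the second series COL1A1 had 0.044, col1a1a 0.067, COL1A2 0.064, COL4A2 0.044 and col28a1a 0.16. Without CTRL 6 and LIRD 1, COL1A1 had 0.068, col1a1a 0.10, COL1A2 0.076, COL2A1 0.027 (ENSDARG00000011407) and 0.022 (ENSDARG00000069093), COL11A1 0.019, COL4A2 0.030, COL9A2 0.0049, col17a1a 0.10, col28a1a 0.084 and col28a2a 0.013. col15a1b had -0.023 with limma-voom and -0.016 with near-identical libraries added up. col28a1a had 0.00048 with at least 10 counts in every library, 0.052 with near-identical libraries added up, 0.052 in the 14 libraries without the block and 0.022 with the ribosomal covariate. COL1A2 had 0.00070 with at least 10 counts in every library, and COL10A1 (ENSDARG00000054753) -0.035 with the ribosomal covariate. With 1 library left out, signs also turned for COL10A1 (ENSDARG00000054753, -0.031 to 0.19), COL1A1 (-0.11 to 0.013), COL1A2 (-0.078 to 0.043), col15a1b (-0.043 to 0.080), col17a1a (-0.19 to 0.040), col1a1a (-0.089 to 0.037) and col28a1a (-0.18 to 0.12). No scaling moved the median of all genes by over 0.1.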
